A study of Mus musculus with 4 samples.

Results

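Peaks of RNA pulled down with YY1 were examined in a pair of tandem arrays of short genes transcribed by RNA polymerase III. The arrays are the 5S ribosomal RNA array of chromosome 8 and a repeated tRNA gene array of chromosome 1. Members were chosen by their measured position, as all deposited peaks with at least 1 base between 126050000 and 126160000 on chromosome 8 or between 172930000 and 173060000 on chromosome 1 of mm9. They numbered 76 of the 12053 peaks of the library, 50 on chromosome 8 and 26 on chromosome 1. YY1 is a zinc finger transcription factor that binds DNA and RNA. The library came from mouse embryonic stem cells grown on irradiated mouse embryonic fibroblasts, carrying the bacterial biotin ligase BirA and a biotinylated YY1 (BirA BioYY1). RNA was crosslinked to protein in these cells with light of 254 nm, and the nuclei were purified. RNA was then pulled down with YY1 on streptavidin and sequenced. The other 3 libraries of the series, cells with BirA alone, a biotinylated OCT4 with BirA, and its own BirA control, were not analysed here. There was thus 1 library with no replicate, the level of these peaks in control cells is not known, and all values describe that library without a test.

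5S ribosomal RNA is the small RNA of the large ribosomal subunit that is made outside the nucleolus. Its genes lie in head-to-tail repeats, each a short transcribed stretch followed by a longer spacer, and the factor TFIIIA recruits the polymerase to a promoter inside the gene. tRNA genes are also short and carry their promoter within the transcribed stretch, and in the mouse genome many stand in clusters where genes of both orientations alternate. Both kinds of RNA are abundant. Copies within an array are nearly alike, so a short read may match several of them. How such reads were placed is not given in the sources used here, and RNA from single copies cannot be told apart.

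The labels of the arrays were set beside the order of genes in the RefSeq table of GRCm38, a later build than that of the peaks. Peaks were not matched to single genes, because coordinates were not carried between builds. On chromosome 8 that table holds a run of 50 genes whose nearest protein-coding neighbours are Gas8 and Rhou, from n-R5s100 to n-R5s149, of which 48 are listed as rRNA and 2 as pseudogenes (n-R5s127 and Rn5s-ps1). The run includes Rn5s. On chromosome 1 it holds 25 tRNA genes between Fcgr4 and Cfap126, from n-TNgtt6 to n-TVcac6, together with Fcgr3, Gm35090 and Mir6546. The order along the chromosome was asparagine, aspartate, glycine, leucine and glycine, then 3 times glutamate, glycine, aspartate, leucine and glycine, and last leucine, aspartate, glycine, glutamate and valine. Within the repeated 5 genes the first glycine tRNA has the anticodon TCC and the second GCC. The numbers of genes in the table stand close to those of the peaks, with 50 genes and 50 peaks on chromosome 8 and 25 genes and 26 peaks on chromosome 1.

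No sequence of mm9 was at hand, and the sequences of the 5S and tRNA genes are not printed. The one transcript of the chromosome 1 run whose sequence was at hand is Mir6546, which lies between the first glutamate tRNA gene, n-TEctc5, and the glycine tRNA gene n-TGtcc1, on the minus strand. It is shown because it stands among the tRNA genes of the run, and no peak was assigned to it. Its mature RNAs in RefSeq on GRCm38.p6 follow 5′ to 3′ with the seed, bases 2 to 8, in capitals.

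mmu-miR-6546-5p: aGGCGCCUcugagcuugugcuugu

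mmu-miR-6546-3p: gAGCGAAGcccaagcgccaga

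The chromosome 8 array had peaks on the minus strand and none on the plus strand. Its 50 minus-strand peaks ran from 126062639 to 126147645, over 85.0 kb, and made up 8.20% of all peaks of the chromosome. The nearest plus-strand peaks lay outside the array, at 126026866 to 126027644, 35.0 kb below its first peak, and at 126554493 to 126555096, 407 kb above its last. The nearest minus-strand peaks outside were farther away on both sides, 496 kb below (125564535 to 125566152) and 790 kb above (126937383 to 126937964). These 4 neighbours measured 582 to 1618 bases, wider than every member. The array thus stood alone on its strand, with no gradual fall of peaks at its ends.

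Peaks recurred along chromosome 8 once per repeat unit. The distance that recurred most among all pairs of midpoints was 1698 bases, found in 48 pairs (17.4 bases SD). These were the 48 pairs of neighbouring peaks that lay 1 unit apart, and their distances ran from 1655 to 1730.5 bases. A straight line through all midpoints gave 1696 bases per unit, and the peaks lay within 71.3 bases of it over the whole array. The 4 peaks more than 50 bases from that line were at 126083060 to 126083219 and 126086488 to 126086611, which lay above it, and at 126101604 to 126101773 and 126103299 to 126103476, which lay below it. The spacing was nearly the same in both parts of the array, with 1696 bases among the first 25 peaks and 1700 bases among the last 25.

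A single unit of the chromosome 8 array was without a peak. Of the 51 units counted from the first to the last peak, 50 held a peak, where the units at both ends are occupied by definition. The empty unit was the 28th from the lowest coordinate. It lay between the peak at 126106701 to 126106875 and the peak at 126110095 to 126110266, whose midpoints were 3392.5 bases apart, or 2.00 periods, with 3219 bases free of any peak. Both neighbours had usual widths, 175 and 172 bases. Since read depth is unknown, the unit is not shown to lack bound RNA.

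**Figure D1:**
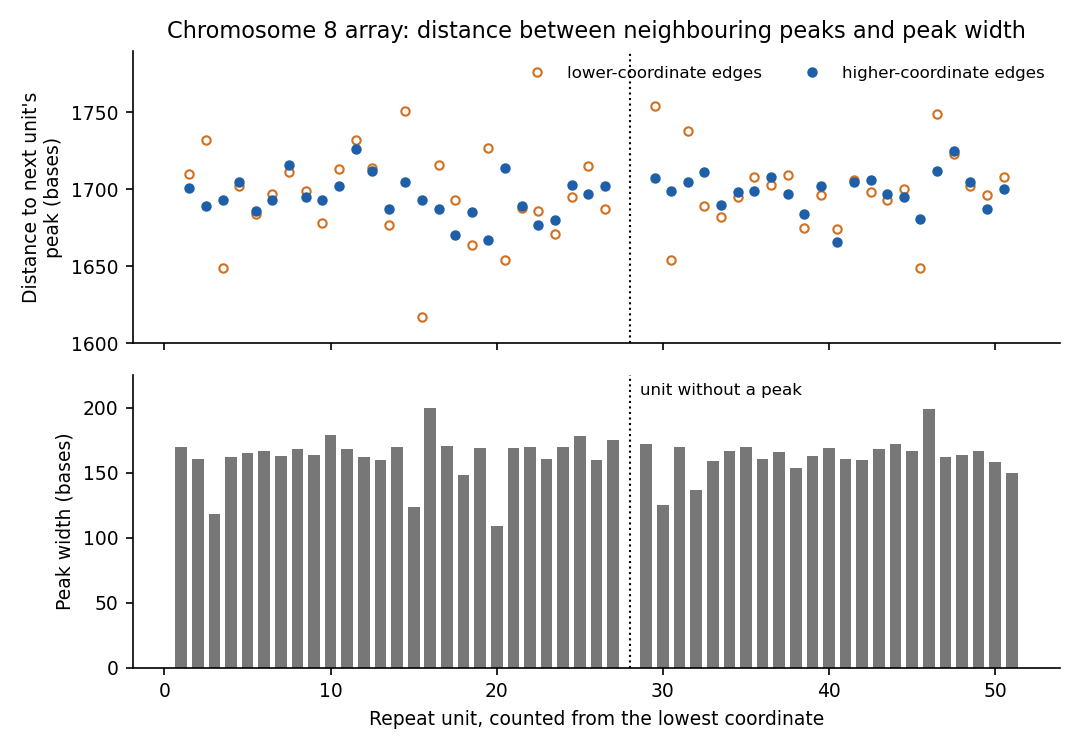
Upper panel, distance in bases from each chromosome 8 peak to the next for pairs 1 unit apart, between lower-coordinate edges (open orange circles) and between higher-coordinate edges (blue dots). Lower panel, the width of each peak in bases, over the repeat units counted from the lowest coordinate. The distances stay around 1698 bases along the whole array, the blue dots scatter less than the orange ones, and the dotted line marks unit 28, the unit without a peak.

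Widths in the chromosome 8 array were nearly uniform. They ran from 109 to 200 bases with a median of 165.5 (quartiles 160.25 and 170), and the SD of 16.4 bases was 10.1% of the mean. In all, 38 of the 50 peaks lay within 10 bases of the median, and the most frequent width, 170 bases, occurred 6 times. The first peak (126062639 to 126062808) was 170 bases wide and the last (126147496 to 126147645) 150 bases. Width showed little trend along the array, with a Spearman correlation of -0.04 between width and unit number over 50 peaks of the same library. The 6 peaks under 150 bases stood in units 3, 15, 18, 20, 30 and 32. The narrowest, at 126094905 to 126095013, measured 109 bases. The widest, at 126088105 to 126088304, measured 200 bases and came directly after a peak of 124 bases.

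The 2 edges of the chromosome 8 peaks were not equally regular. Distances between the lower edges of neighbouring units had an SD of 27.6 bases (1617 to 1754), and those between the higher edges an SD of 13.2 bases (1666 to 1726). Within 20 bases of their median lay 42 of 48 distances between higher edges and 30 of 48 between lower edges. Between neighbours that were both 150 to 180 bases wide (33 distances), the SDs were close, with 14.6 bases for lower and 12.5 bases for higher edges. Most of the difference between the edges thus came with the narrower and wider peaks. If the lists are named for the strand of the RNA, the higher coordinate is the 5′ side of a minus-strand peak, and the lower coordinate the 3′ side. Each edge was then set against the median place of that edge in the 4 nearest occupied units, moved by the period (fewer at the ends of the array). In the 6 peaks under 150 bases the lower edge lay 9 to 58.1 bases inward of its usual place, with a median of 41, while the median shift of the higher edge was -1.44 bases. Most of the narrow peaks were therefore short at the lower edge. Those of 148 and 137 bases were not clearly so, with lower-edge shifts of 9 and 17.4 bases. These lay within the range of the 44 peaks of 150 bases or more, which reached 19.6 bases. At the higher edge 5 of the 6 narrow peaks lay within 8 bases of the usual place. The exception there was the narrowest peak, whose higher edge was shifted by -23.5 bases, inward as well.

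**Figure D2:**
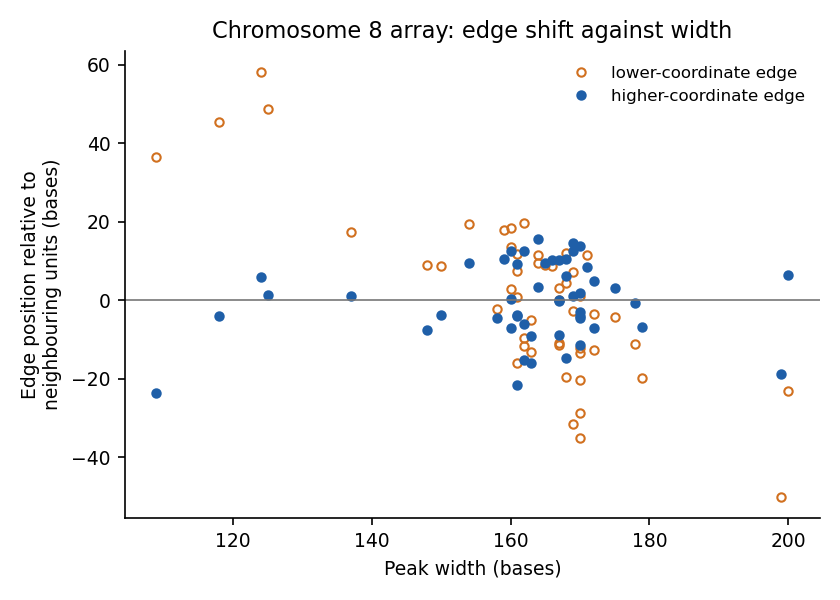
Place of the lower-coordinate edge (open orange circles) and of the higher-coordinate edge (blue dots) of each of the 50 chromosome 8 peaks, in bases relative to the same edge in neighbouring units, over the width of the peak in bases. Narrow peaks have a lower edge above 0, up to 58.1 bases, while the higher edges stay between -23.5 and 15.6 bases at all widths.

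The correlation of width with the place of the lower edge was -0.80, and with that of the higher edge 0.12, over the same 50 peaks. Both share the edge with the width itself, so they only describe which edge varied. Neighbouring distances that have a peak in common correlated at -0.46 for the lower edges and at 0.10 for the higher edges (46 pairs of distances). An edge that moves in a single peak lengthens one distance and shortens the next.

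The chromosome 1 array had peaks on both strands, 13 on each. They ran from 172958099 to 173041711, over 83.6 kb, and no plus-strand peak overlapped a minus-strand peak. They were 3.54% of all peaks of the chromosome. The nearest peaks outside lay on the minus strand, 174 kb below (172783360 to 172783638) and 168 kb above (173210012 to 173210593). On the plus strand the nearest were 3679 kb below (169279179 to 169279287) and 300 kb above (173341581 to 173341974). This array too was well apart from its neighbours.

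On chromosome 1 peaks stood in 8 blocks, when a block ended wherever more than 4000 bases were free of peaks, a limit chosen after the positions were seen. Of these, 5 blocks held 4 or 5 peaks and 3 held a single plus-strand peak. In the order of coordinates the strands ran as a plus-strand peak alone, then 3 minus and 2 plus peaks, which occurred 4 times in a row, and last 1 minus and 4 plus peaks. The 3 middle blocks were repeat units of the same 5 sites, with 3 minus-strand sites followed by 2 plus-strand sites. They held 15 of the 26 peaks. The first unit ran from 172994244 to 172996877, the second from 173001832 to 173004554 and the third from 173009446 to 173012123. Their lengths were 2634, 2723 and 2678 bases, and 4954 and 4891 bases without a peak lay between them.

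**Figure D3:**
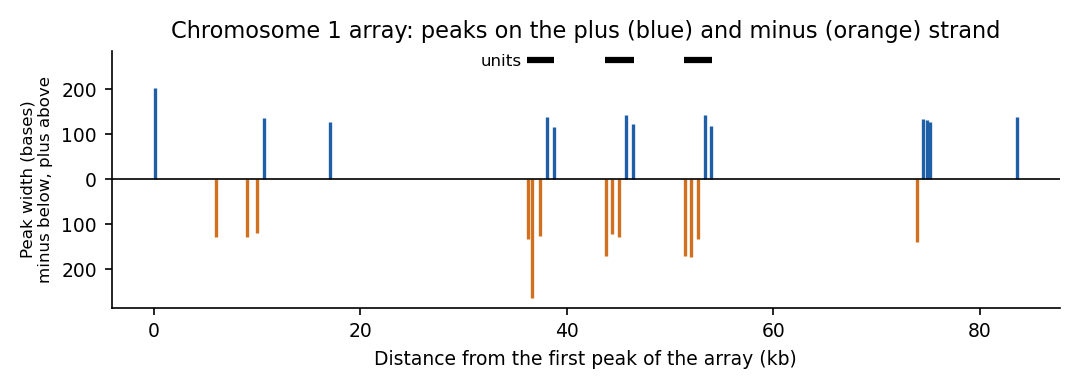
Peaks of the chromosome 1 array over the distance in kb from its first peak, with the height of each line giving the peak's width in bases, plus-strand peaks upward in blue and minus-strand peaks downward in orange. The 3 black bars mark the repeated units, each with 3 minus-strand and 2 plus-strand peaks, and stretches of 19002 and 19795 bases on either side of them hold no peak.

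The same repeat period was found on both strands of the chromosome 1 array. On the minus strand the distance that recurred most was 7614 bases, in 5 pairs of midpoints (14.9 bases SD). That SD leaves out distances more than 50 bases away. Over all 6 minus-strand steps between the 3 units, the midpoint SD was 42.4 bases (7592.5 to 7711). On the plus strand the most frequent distance was 655.5 bases, in 4 pairs, which is not the spacing of the units. Of these pairs, those of 638.5, 643 and 682 bases joined the neighbouring plus-strand sites of a unit. The pair of 668 bases joined the outer plus-strand peaks of the last block of several peaks, with another peak between them. With distances under 2000 bases left out, a limit added after the values were seen, the plus strand gave 7614.5 bases in 3 pairs (7571, 7614.5 and 7635.5 bases). The strands thus differed in period by less than the spread of the single distances. From the second to the third unit, the 3 minus-strand sites and the first plus-strand site moved by 7614, 7618, 7617 and 7615 bases at the higher edge. From the first to the second unit the same 4 sites moved by 7625, 7640, 7635 and 7637 bases. The last plus-strand site went against both, with 7677 and then 7569 bases, so that its peak in the second unit was displaced. Over both steps together it moved by 15246 bases, against 15239 to 15258 for the other sites.

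The 5 sites of the repeated units differed in how alike their peaks were. The first minus-strand site had peaks of 133, 170 and 170 bases in the 3 units. The second minus-strand site was the most variable, with peaks of 264, 122 and 173 bases. Its 264-base peak, at 172994636 to 172994899, was the widest member of either array. The third minus-strand site had peaks of 126, 129 and 133 bases, and the first plus-strand site peaks of 139, 142 and 143 bases. The last plus-strand site had the narrowest peaks, of 117, 122 and 118 bases. The last minus-strand site and both plus-strand sites thus kept their width within 7 bases across the units, while the first and second sites did not.

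As on chromosome 8 when peaks of all widths were taken, the lower edges of the minus-strand peaks were the less regular ones. Over 6 steps between units, the lower edges of the minus-strand sites moved by 7567 to 7782 bases (76.6 bases SD) and the higher edges by 7614 to 7640 bases (10.6 bases SD). Without the step from the 264-base peak the SDs were 25.4 and 8.41 bases over 5 steps. On the plus strand the edges did not differ in this way, with SDs of 41.2 bases for the lower and 45.0 bases for the higher edges over 4 steps, both set by the displaced peak of the last site. With so few steps these SDs are rough.

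The strands were offset by a nearly fixed distance within each unit. From the last minus-strand peak to the first plus-strand peak, the midpoints were 671.5, 673.5 and 673.0 bases apart in the 3 units. The same step was 662.5 bases in the block below them, between the peaks at 172968086 to 172968205 and 172968741 to 172968875. In the last block it was 572 bases, between 173031919 to 173032057 and 173032494 to 173032626. Of these 5 distances, 4 lay within 11 bases of each other. The other 5 neighbours on opposite strands had the plus-strand peak at the lower coordinate and were farther apart, by 5037 to 19923.5 bases. Taken over all 13 minus-strand peaks, the distance to the next plus-strand peak at a higher coordinate had a median of 1355 bases and ran from 572 to 4718 bases, since it mixes the 3 minus-strand sites. In the repeated units it was 1866, 1895 and 1895.5 bases from the first site and 1408.5, 1333 and 1355 bases from the second. Spacing within a strand was less even, with 457.5, 562 and 540.5 bases from the first to the second minus-strand site and 643, 682 and 638.5 bases between the plus-strand sites.

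**Figure D4:**
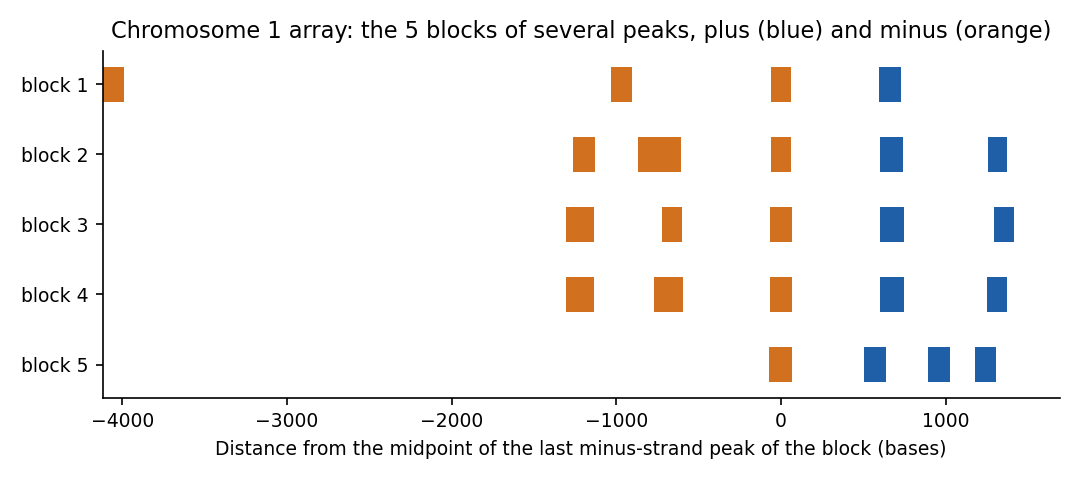
The 5 blocks of the chromosome 1 array that hold several peaks, each aligned at the midpoint of its last minus-strand peak, with the distance from it in bases, minus-strand peaks in orange and plus-strand peaks in blue. Blocks 2 to 4 are the repeated units and lie close together at all 5 sites, block 1 shares with them the pair around 0, and block 5 has 1 minus-strand peak followed by 3 plus-strand peaks.

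The other 11 peaks of the chromosome 1 array, 7 on the plus and 4 on the minus strand, did not continue the repeat of 7614 bases to within 50 bases. When the second unit was carried outward by whole periods, they lay 72 to 3077.5 bases from the nearest site of their strand. The peak at 72 bases was the first of the array. By the same measure, the first unit's own peaks at 172994636 to 172994899 and 172996761 to 172996877 were at -97 and -60.5 bases. The limit of 50 bases thus does not set the first peak of the array apart from the repeat. Below the units, minus-strand peaks of 127 bases (172964027 to 172964153), 128 bases (172967111 to 172967238) and 120 bases (172968086 to 172968205) were followed by plus-strand peaks of 135 bases (172968741 to 172968875) and 126 bases (172975116 to 172975241). This part repeated the strand order of the units and, at 662.5 bases, nearly their step from minus to plus strand, while its other steps, of 3084.5, 971 and 6370.5 bases, were longer. The first peak of the array, on the plus strand at 172958099 to 172958300, was 202 bases wide and stood 5726 bases below the next.

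Above the units, the last block had the minus-strand peak of 139 bases and then plus-strand peaks of 133 bases (173032494 to 173032626), 131 bases (173032882 to 173033012) and 127 bases (173033165 to 173033291). Their midpoints were 387 and 281 bases apart. The block had the strands of the first 4 sites of a unit read backward and turned over, 1 minus and 3 plus in place of 3 minus and 1 plus. The last site of a unit had no counterpart in the block. Its 3 steps, of 572, 387 and 281 bases, were each shorter than those of the units in that order. There they were 671.5 to 673.5, 659.5 to 737 and 457.5 to 562 bases. In GRCm38 the tRNA genes near the upper end of the run stand as leucine, aspartate, glycine and glutamate, the reverse of the first 4 of the repeated 5. Peaks were not matched to these genes, and whether the block is a turned copy of the unit was not tested. A last plus-strand peak of 138 bases followed at 173041574 to 173041711.

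Stretches without a peak were longer in the chromosome 1 array. Tiled from its first base by 7614 bases, the array spanned 11 units, of which 2 had no peak on either strand, 3 none on the plus strand and 5 none on the minus strand. The 2 empty tiles fell into the longest free stretches, of 19002 bases below the repeated units and 19795 bases above them. With most peaks of the outer blocks off the period, these tiles do not show a missing copy of the unit.

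Widths separated the arrays from most other peaks and, less sharply, from each other. The median was 133 bases on each strand of the chromosome 1 array, with ranges of 117 to 202 bases on the plus and 120 to 264 bases on the minus strand. On chromosome 8 it was 165.5 bases. The ranges of the arrays overlapped, but 44 of the 50 chromosome 8 peaks measured at least 150 bases and 21 of the 26 chromosome 1 peaks less. Of the 26, 3 fell within 10 bases of the chromosome 8 median, all at the first and second minus-strand site of the repeated units. The widths of the chromosome 1 array were also more uneven, with an SD of 31.8 bases or 22.3% of the mean. Outside the arrays the median of the 11977 other peaks was 338 bases, and 23.9% of them measured less than 200 bases, against 49 of 50 and 24 of 26 in the arrays. In the 6 other same-strand clusters of at least 10 peaks (joined across up to 50 kb) whose median was under 150 bases, the 103 peaks had a median of 127 bases. It was close to that on chromosome 1, but these clusters were chosen for their narrow median, which largely set this closeness in advance. Width depends on the caller's threshold and on read depth as well as on the RNA, and neither is known here.

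**Figure D5:**
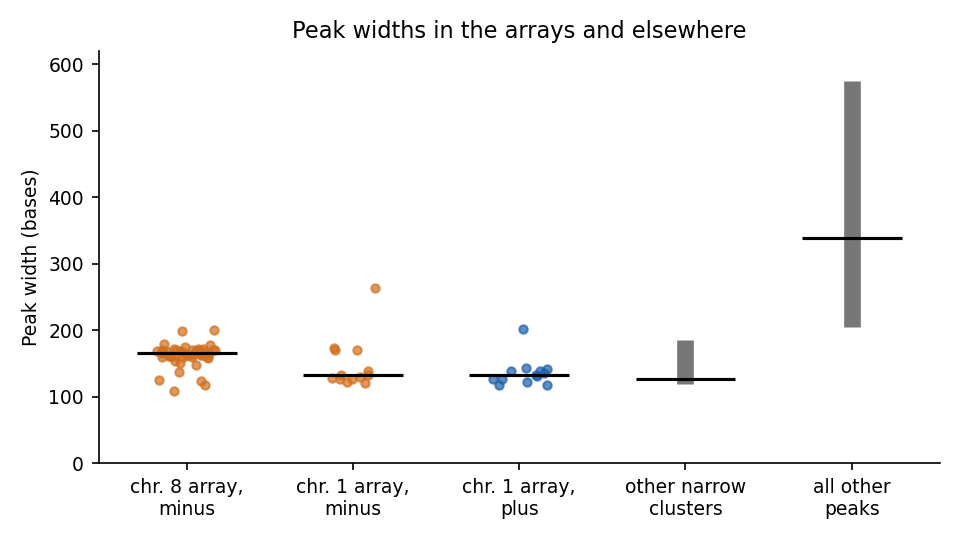
Peak widths in bases for the chromosome 8 array and for each strand of the chromosome 1 array, 1 point per peak with the median as a black line, beside the quartile range (grey bar) and median of 103 peaks in other narrow clusters and of 11977 peaks outside the arrays. Medians are 165.5, 133 and 133 bases in the arrays, 127 bases in the other narrow clusters and 338 bases outside the arrays.

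The array with peaks on 1 strand and the array with peaks on both thus covered stretches of like length in different ways. The chromosome 8 array had 5.88 peaks per 10 kb and its peaks covered 9.55% of its span. The chromosome 1 array had 3.11 peaks per 10 kb and a cover of 4.43%. In the chromosome 8 array 48 of 49 neighbouring distances lay within 100 bases of their median. In the chromosome 1 array none of 12 did so on either strand, since short distances within a unit alternate with long ones between units. Among the 35 other same-strand clusters of at least 10 peaks, the highest share of such distances was 20% and the median share 6.67%. No distance recurred in more than 3 pairs of peaks in any of these 35, against 48 pairs on chromosome 8 and, on chromosome 1, 5 on the minus and 4 on the plus strand. The 4 plus-strand pairs are those around 655.5 bases. Those of 638.5, 643 and 682 bases lay within a unit, and that of 668 bases lay in the last block of several peaks, outside the repeated units. The plus-strand distance of 7614.5 bases recurred in 3 pairs, no more than the highest count in the other clusters. The margin of the chromosome 1 array over the other clusters was thus small by this measure. On the plus strand it was absent for the repeat of units, and also for the spacing within the repeated units taken alone.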

How the data were processed

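Peaks were called by the authors on 1 YY1 CLIP-seq library, and the deposited lists, 1 per strand, hold positions and no levels, as chromosome, start and end in 3 columns. Per the submitters' processing notes the build was mm9, and cutadapt, Bowtie, Bowtie2 and SAMtools were used. No source used here gives the peak caller, its threshold, any use of a control or the depth. Strand was taken from the list's name. Starts were made 1-based. The repeat period was the distance between 500 and 20000 bases that recurred most among same-strand midpoints (within 50 bases, the smallest on a tie), given as the median of those distances. A distance of k periods between neighbours held k-1 units without a peak. The members and settings were chosen with earlier results of these data known. On chromosome 1 any peak could be named. On chromosome 8 these were the first, last, narrowest and widest peak, those beside an empty unit and those over 50 bases from the fitted line. Gene names came from RefSeq for GRCm38, for names and order only. On simulated data with 1 peak per unit on each strand, 3 of 3 arrays were recovered. Units of several sites per strand, as on chromosome 1, were not simulated, so the simulation does not cover that array. Scripts ran in Python 3.11.15 (scipy 1.17.1, pandas 2.3.3, numpy 2.4.6, matplotlib 3.10.9). Alternatives were other edges, tolerances, windows, parts of an array, joined peaks and wider peaks only.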

Additional observations from a re-analysis of the deposited data

How the results depend on the processing

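Of 60 alternative values of 12 results, 52 stayed within the spread of the peaks or within 1.5 times the count, and 8 did not. Some stay by construction, since no member lay at a window's edge or within 100 bases of another on its strand. Keeping only the wider 50% of all peaks of each strand left 0 members on either strand of either array, so 51 units were empty on chromosome 8 and 11 on chromosome 1. The period of the chromosome 8 array ran from 1696 to 1700 bases over its alternatives. On the plus strand of chromosome 1, the most frequent distance was 7614.5 bases with distances under 2000 bases left out, an alternative chosen after seeing the data. On its minus strand it was 551.25 bases from neighbouring peaks only, the spacing within a unit, and periods found that way gave 116 empty tiles. The lower part of the chromosome 1 array gave no recurring distance on either strand. The median strand offset of 1355 bases was 1521 in the lower and 673.5 in the higher part of the array and 671.5 between neighbouring peaks, moves of up to 2.02 times that count among the 52 only because the offsets of mixed sites have an SD of 1099 bases. The distance between strands that recurred most was 1333 bases within 50 or 100 bases and 672.25 within 20. No paired analysis was possible because only the YY1 group had values.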
